A study of Mus musculus with 4 samples.

Results

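Cell cycle and DNA replication genes were examined in the hippocampus of ovariectomized C57BL/6 mice that had undergone GCI, global cerebral ischemia, in which the blood supply of the brain is cut for a short time. Mice labelled PELP1 FBKO, which lack PELP1 (a protein that works with estrogen receptors) in the forebrain, were set against FLOXED mice, with 2 RNA-seq libraries per genotype. Animals of both genotypes carried estradiol (E2) mini pumps, underwent GCI and were killed at 24 h of reperfusion, so both groups share the ovariectomy, the estradiol and the ischemia. The promoter that drives the deletion is not given in the sources used here, nor is it stated whether the libraries came from separate or pooled animals, and the series text speaks of samples run in duplicate. The genes were taken by symbol: the Mcm genes numbered 2 to 10, the A, B, D and E cyclins, every Cdk gene with a plain number, E2f1 to E2f8, Cdc6, Cdc20, the Cdc25 genes, Cdc45, 7 kinase inhibitors of the Cdkn families, and Mki67, Top2a, Pcna, Rrm1, Rrm2, Cdt1 and Gmnn. The rule found 65 of the 22609 genes listed, and it uses no measured value.

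A cell that divides first loads the MCM helicase onto replication origins, with the help of Cdc6 and Cdt1, and then copies its DNA behind that helicase. Cyclins switch on cyclin-dependent kinases, which release E2F transcription factors from the retinoblastoma proteins, and inhibitors of the Cdkn families hold those kinases back. In the adult hippocampus mature neurons do not divide; progenitors of the dentate gyrus, oligodendrocyte precursors, and microglia and endothelial cells after injury can. Several Cdk genes have other duties, among them Cdk5, a kinase of neurons, and the kinases that act on transcription.

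The libraries held between 17524594 and 22447658 reads assigned to genes. Levels are given as CPM, reads of a gene relative to the library total scaled by TMM (a normalization for library composition), and fold changes are on the log2 scale, PELP1 FBKO minus FLOXED. Pelp1, the targeted gene, stood at 17.9 and 17.3 CPM in PELP1 FBKO, against 26.7 and 26.2 CPM in FLOXED (log2 fold change -0.59, SE 0.149, adjusted p = 0.130). Neuron markers were present: the 6 pyramidal and granule neuron genes summed to 7036 and 5165 CPM in PELP1 FBKO and 5951 and 6356 CPM in FLOXED. Most of that came from Camk2a and Slc17a7, and whether the tissue was hippocampus rather than other forebrain was not tested. Of the 65 genes 64 had reads and 58 passed the filter on low counts. Those left untested were Ccnb1, Ccnb3, Cdc25c, Cdk6, Cdkn2a, Cdkn3 and E2f7. Ccnb3 had 0 reads in all libraries, which allows up to 0.171 CPM (unscaled) in the shallowest, taking 3 reads as the limit for counting error. The spans of Ccna2, Ccnd2, Ccnd3, Ccne2, Cdc20, Cdk4, Cdk5, Cdk7, Cdk17, E2f1, Mcm7 and Mcm9 overlap another tested gene in RefSeq's GRCm38 table, and the strand setting of the counting is not given, so their counts are less certain.

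No member passed the test. Of the 16 licensing and fork genes 11 had a negative log2 fold change and 13 were lowest in PELP1 FBKO 1, Mki67 and Top2a lay below FLOXED in both PELP1 FBKO libraries, and 3 kinase inhibitors lay above in both. By edgeR's quasi-likelihood test with Benjamini-Hochberg adjustment over 14978 genes, 0 of 58 members were higher and 0 lower at an adjusted p under 0.05, as were 0.00% and 0.00% of all genes. The smallest adjusted p of a member was 0.184, for Mcm6. DESeq2 called 0 members, where it called 2.20% of all genes higher and 0.895% lower, and limma-voom called 0. At an unadjusted p under 0.05, 1 member was higher (Cdk19), against 10.1% of all genes, and 5 were lower (Mcm6, Top2a, Mki67, Mcm5 and Ccna1), against 5.55%. That is 1.72% and 8.62% of members. Both PELP1 FBKO libraries lay above both FLOXED libraries in 10 members (17.2%), against 25.4% of all genes, and below them in 24 members (41.4%), against 23.0%. The fold change was negative in 38 of 58 members and positive in 20, where all genes divided evenly (50.0% each), and the median was -0.13 for members and 0.00 for all tested genes. These shares describe the list and were not tested.

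**Figure D1:**
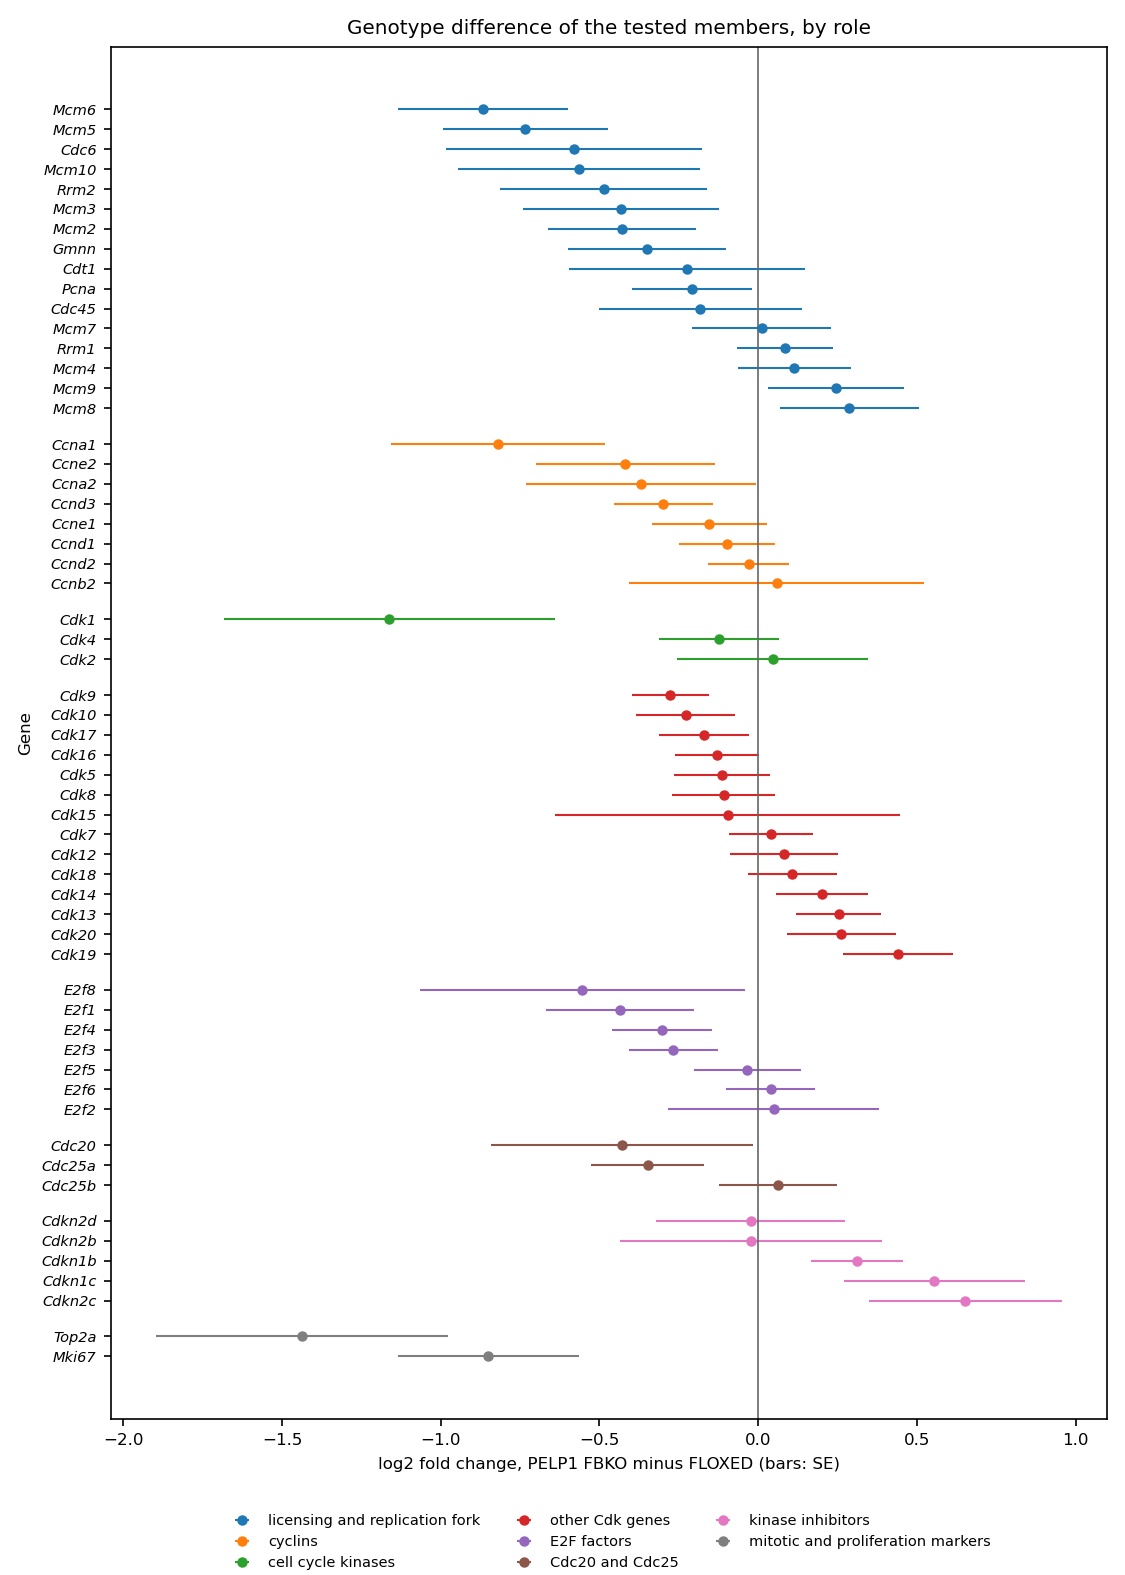
Log2 fold change (x axis, PELP1 FBKO minus FLOXED) of the 58 tested genes, with bars for the SE, in the order of their roles (y axis, colours). Top2a (-1.44) and Cdk1 (-1.16) lie farthest to the left and Cdkn2c (0.65) farthest to the right, and most replication genes lie left of 0.

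The MCM helicase opens the double helix ahead of the fork, and its subunits are Mcm2 to Mcm7. Mcm6 stood at 9.61 and 11.6 CPM in PELP1 FBKO, against 14.1 and 24.5 CPM in FLOXED (log2 fold change -0.87, SE 0.267, adjusted p = 0.184). The genotypes did not overlap, but FLOXED 2 lay far above the other libraries, and without it the difference was -0.42. Mcm5 had 5.85 and 9.89 CPM in PELP1 FBKO, against 14.0 and 12.2 CPM in FLOXED (log2 fold change -0.73, SE 0.261, adjusted p = 0.240). Here PELP1 FBKO 1 was the lowest library, and the genotypes again did not overlap. Mcm2 had 6.44 and 9.75 CPM in PELP1 FBKO, against 10.7 and 11.0 CPM in FLOXED (log2 fold change -0.43, SE 0.233, adjusted p = 0.421). Mcm3 was low in one library only: it had 5.21 CPM in PELP1 FBKO 1 and 10.6 CPM in PELP1 FBKO 2, against 10.4 and 10.9 CPM in FLOXED. Mcm4 (15.5 and 19.7 CPM in PELP1 FBKO, 16.3 and 16.1 CPM in FLOXED) and Mcm7 (8.71 and 11.7 CPM in PELP1 FBKO, 11.2 and 9.13 CPM in FLOXED) overlapped between genotypes. PELP1 FBKO 1 was the lowest library for 6 of 6 helicase subunits, and PELP1 FBKO 2 for 0. Summed over the 6 subunits, the level was 51.3 and 73.3 CPM in PELP1 FBKO and 76.7 and 83.9 CPM in FLOXED. In bulk tissue fewer cells of a type and less RNA per cell cannot be told apart. Without PELP1 FBKO 2 the differences of Mcm3, Mcm5 and Mcm6 were -1.03, -1.16 and -1.01, whereas without PELP1 FBKO 1 they were -0.03, -0.42 and -0.76. Each of these fits leaves a single PELP1 FBKO library. Over 11 alternatives the adjusted p ran from 0.0121 to 0.289 for Mcm6, from 0.00480 to 0.651 for Mcm5 and from 0.0247 to 0.992 for Mcm3.

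The MCM genes are textbook targets of E2F, and the genes of mitosis carry a CHR (cell cycle genes homology region) element, so the promoters of Mcm6 and Mcm5, the licensing genes with the smallest p-values, and of Top2a, the marker gene with the smallest p-value, are shown. Mki67, whose p-value lay between those of Top2a and Mcm5, has 0 E2F and 2 CHR matches in its window and is not printed. The sequences are the 250 bases before the RefSeq start site in GRCm38.p6, read 5′ to 3′ on the gene's strand, with matches to an E2F word or a CHR word in capitals. Mcm6 lies on the minus strand of chromosome 1 (chr1:128359706-128359955), Mcm5 on the plus strand of chromosome 8 (chr8:75109259-75109508) and Top2a on the minus strand of chromosome 11 (chr11:99024190-99024439).
Mcm6: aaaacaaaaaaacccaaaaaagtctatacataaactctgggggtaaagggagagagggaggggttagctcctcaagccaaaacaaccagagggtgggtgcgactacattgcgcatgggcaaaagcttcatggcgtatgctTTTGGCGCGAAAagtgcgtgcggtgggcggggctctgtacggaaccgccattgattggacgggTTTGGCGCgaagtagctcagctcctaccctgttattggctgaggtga
Mcm5: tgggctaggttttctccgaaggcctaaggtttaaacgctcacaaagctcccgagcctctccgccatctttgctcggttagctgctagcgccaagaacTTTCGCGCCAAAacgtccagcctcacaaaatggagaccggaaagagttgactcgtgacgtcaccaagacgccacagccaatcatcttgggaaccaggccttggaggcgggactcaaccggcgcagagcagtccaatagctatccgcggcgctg
Top2a: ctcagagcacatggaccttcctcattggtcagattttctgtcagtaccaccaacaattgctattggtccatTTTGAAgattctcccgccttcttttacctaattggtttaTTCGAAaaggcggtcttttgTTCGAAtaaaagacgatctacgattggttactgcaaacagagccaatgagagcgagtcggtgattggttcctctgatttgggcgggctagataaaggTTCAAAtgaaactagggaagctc
The E2F words searched were TTTCCCGC, TTTGGCGC, TTTCGCGC and TTTGCCGC, the CHR words TTTGAA and TTCGAA, and the CCAAT box was searched as CCAAT, each on both strands. The Mcm6 window holds 3 E2F matches, 2 of which overlap, and 0 CHR matches. The Mcm5 window holds 2 overlapping E2F matches and 0 CHR matches. The Top2a window differs, with 0 E2F and 4 CHR matches. RefSeq windows of 300 bases, from 250 before to 50 after the start site, were at hand for 52 of the 65 genes. An E2F word stood in 7 of 15 windows of the licensing and fork genes (46.7%), in 0 of 12 windows of the Cdk genes outside the cell cycle core, in 14 of 59 windows of all members (23.7%) and in 2.26% of 32851 windows of all genes. A CHR word stood in 25.4% of the members' windows and 19.2% of all windows. A CCAAT box stood in 64.4% of the members' windows and 37.4% of all windows. A match is a description of letters, base composition was not matched, and binding was not measured.

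The remaining licensing factors were scarcer, and only a part of them lay below FLOXED. Cdc6, the loader of the helicase, had 0.771 and 1.13 CPM in PELP1 FBKO, against 1.65 and 1.20 CPM in FLOXED (log2 fold change -0.58, SE 0.404, adjusted p = 0.526). Cdt1, its partner, overlapped between genotypes, with 1.68 and 3.43 CPM in PELP1 FBKO and 3.14 and 2.81 CPM in FLOXED. Gmnn, which encodes geminin, the inhibitor of Cdt1, had 3.13 and 3.28 CPM in PELP1 FBKO, against 4.16 and 4.01 CPM in FLOXED (log2 fold change -0.35, adjusted p = 0.536). Mcm10, a fork factor outside the ring, had 0.861 and 0.980 CPM in PELP1 FBKO, against 1.54 and 1.20 CPM in FLOXED. Cdc45, which joins the MCM ring to form the active helicase, overlapped between genotypes (1.99 and 3.09 CPM in PELP1 FBKO, 3.14 and 2.63 CPM in FLOXED). The genotypes did not overlap for Cdc6, Gmnn and Mcm10 and overlapped for Cdt1 and Cdc45. For Cdc6 the gap was narrow, with 23 reads in PELP1 FBKO 2 and 26 reads in FLOXED 2.

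Rrm1 and Rrm2 encode the large and small subunits of ribonucleotide reductase, which makes the DNA precursors. Rrm2, the subunit whose level follows S phase, had 1.31 and 1.37 CPM in PELP1 FBKO, against 1.82 and 1.94 CPM in FLOXED (log2 fold change -0.49, SE 0.327, adjusted p = 0.513). Rrm1 had 21.6 and 23.3 CPM in PELP1 FBKO and 21.8 and 20.5 CPM in FLOXED, so its libraries overlapped. Per kilobase of the longest transcript the mean level over all libraries was 3.98 CPM for Rrm1 and 0.735 CPM for Rrm2. Pcna, the sliding clamp of the DNA polymerases, which also serves repair, had 15.1 and 20.2 CPM in PELP1 FBKO and 21.6 and 19.2 CPM in FLOXED. Mcm8 and Mcm9, whose proteins form a pair that acts in recombination repair, lay on the other side: Mcm8 had 6.12 and 6.66 CPM in PELP1 FBKO, against 5.65 and 4.84 CPM in FLOXED. Mcm9 had 6.35 and 5.97 CPM in PELP1 FBKO, against 5.47 and 4.94 CPM in FLOXED. They were the only members among the 16 licensing and fork genes with both PELP1 FBKO libraries above both FLOXED libraries, and their adjusted p-values were 0.566 and 0.621. In 7 of the 16 both PELP1 FBKO libraries lay below, and the median log2 fold change was -0.29. Over all genes 23.0% lay below and 25.4% above.

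**Figure D2:**
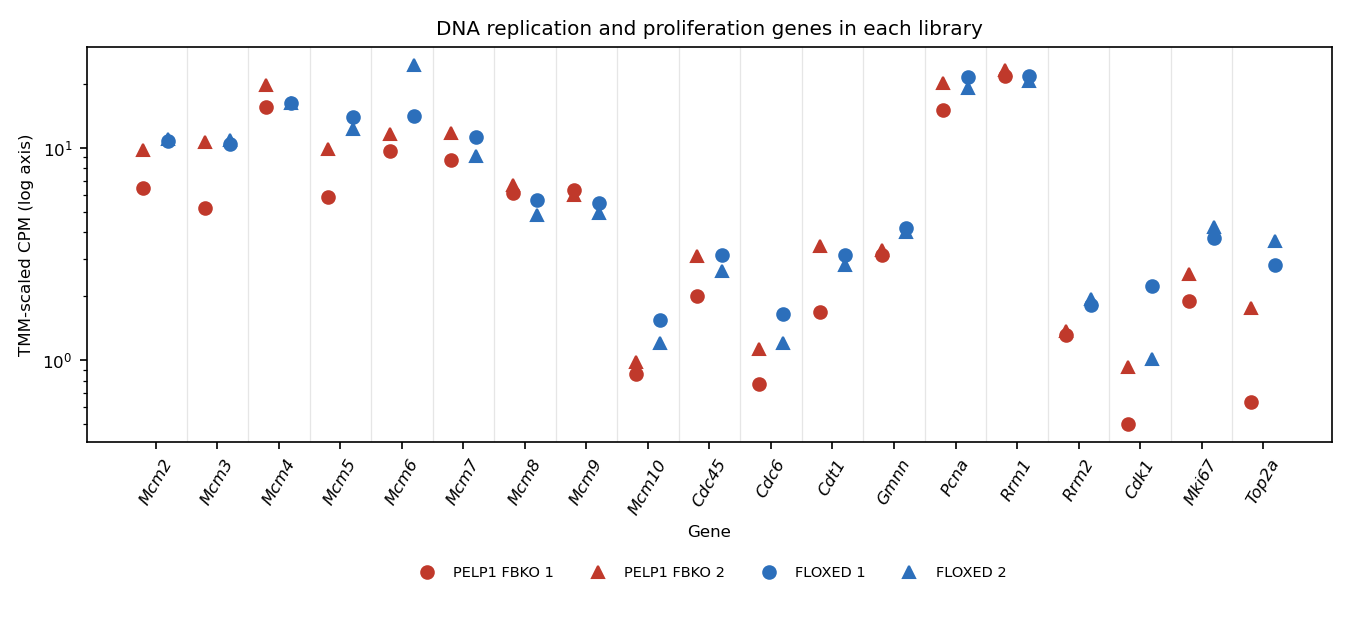
Level of 19 replication and proliferation genes (x axis) in each library, as TMM-scaled CPM on a log axis. PELP1 FBKO libraries are red and FLOXED libraries blue, with circles for replicate 1 and triangles for replicate 2; the PELP1 FBKO 1 circle is the lowest point for Mcm2, Mcm3, Mcm5, Cdt1, Cdk1 and Top2a among others, and the FLOXED 2 triangle stands high for Mcm6 (24.5 CPM).

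Top2a, Mki67 and Cdk1 are markers of proliferation, and each averaged under 5 CPM. Top2a, the topoisomerase that untangles replicated chromosomes, had 14 and 36 reads in PELP1 FBKO, against 49 and 79 reads in FLOXED. Scaled, these were 0.635 and 1.76 CPM in PELP1 FBKO, against 2.79 and 3.65 CPM in FLOXED (log2 fold change -1.44, SE 0.459, adjusted p = 0.198). Mki67, which encodes the proliferation antigen Ki-67, had 1.90 and 2.55 CPM in PELP1 FBKO, against 3.76 and 4.24 CPM in FLOXED (log2 fold change -0.85, SE 0.285, adjusted p = 0.215). Both genes kept the genotypes apart, with PELP1 FBKO 1 lowest and FLOXED 2 highest. Cdk1, the kinase of mitotic entry, had 0.499 and 0.931 CPM in PELP1 FBKO, against 2.22 and 1.02 CPM in FLOXED (log2 fold change -1.16, SE 0.521, adjusted p = 0.336). Its libraries PELP1 FBKO 2 and FLOXED 2 lay close together, from 19 and 22 reads, and without FLOXED 1 the difference was -0.51. Without PELP1 FBKO 1 the difference of Top2a was -0.89, and without PELP1 FBKO 2 it was -2.34. Per kilobase the mean level over all libraries was 0.423 CPM for Top2a, 0.310 CPM for Mki67 and 0.267 CPM for Cdk1.

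Ccnd1 and Ccnd2 had the highest levels of the cyclins and overlapped between genotypes, whereas Ccnd3 and the scarcer Ccna1 and Ccne2 had both PELP1 FBKO libraries below both FLOXED libraries. Per kilobase, mean levels over all libraries were 16.1 CPM for Ccnd2, 15.8 CPM for Ccnd1, 8.94 CPM for Ccne1 and 5.18 CPM for Ccnd3, against 0.667 CPM for Ccna2 and 0.0973 CPM for Ccnb1. D cyclins activate Cdk4 and Cdk6 in G1. Ccnd2 had 103 and 98.4 CPM in PELP1 FBKO and 108 and 97.8 CPM in FLOXED. Ccnd1 had 50.3 and 63.5 CPM in PELP1 FBKO and 59.1 and 62.7 CPM in FLOXED, and both genes overlapped between genotypes. Ccnd3 was apart, with 16.9 and 18.9 CPM in PELP1 FBKO, against 22.2 and 21.8 CPM in FLOXED (log2 fold change -0.30, SE 0.156, adjusted p = 0.402). E cyclins start S phase with Cdk2, and Ccne2 had 2.18 and 2.69 CPM in PELP1 FBKO, against 3.42 and 3.09 CPM in FLOXED (log2 fold change -0.42, SE 0.282, adjusted p = 0.513). Ccne1 overlapped between genotypes, with 16.0 and 17.8 CPM in PELP1 FBKO and 21.2 and 16.5 CPM in FLOXED.

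Ccna1, a cyclin known mainly from male germ cells, had 25 and 21 reads in PELP1 FBKO, against 34 and 41 reads in FLOXED, or 1.13 and 1.03 CPM in PELP1 FBKO, against 1.94 and 1.89 CPM in FLOXED (log2 fold change -0.82, SE 0.338, adjusted p = 0.296). It was the cyclin with the smallest p. Ccna2, the A cyclin of dividing somatic cells, overlapped between genotypes, with 2.09 and 1.37 CPM in PELP1 FBKO and 1.82 and 2.63 CPM in FLOXED. Ccnb2, a mitotic cyclin, stood between 0.513 and 0.738 CPM in all libraries, and Ccnb1 had 1 and 6 reads in PELP1 FBKO and 7 and 5 reads in FLOXED. In 3 of 8 tested cyclins both PELP1 FBKO libraries lay below both FLOXED libraries and in 0 above, where all genes had 23.0% below and 25.4% above, and the median log2 fold change was -0.23.

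Cdk4 and Cdk2, which drive G1 and the entry into S phase, overlapped between genotypes. Cdk4, the partner of D cyclins, had 47.3 and 62.4 CPM in PELP1 FBKO and 68.2 and 51.3 CPM in FLOXED (log2 fold change -0.12, SE 0.189, adjusted p = 0.801). Cdk2, the partner of E and A cyclins, had 2.67 and 3.92 CPM in PELP1 FBKO and 2.85 and 3.51 CPM in FLOXED (log2 fold change 0.05, SE 0.301, adjusted p = 0.960). The sign of both differences turned when single libraries were left out. Cdk6, the other partner of D cyclins, had 9 and 8 reads in PELP1 FBKO, against 14 and 10 reads in FLOXED, so its genotypes did not overlap, but it was too scarce to be tested. Per kilobase the mean level over all libraries was 27.9 CPM for Cdk4, 0.992 CPM for Cdk2 and 0.0447 CPM for Cdk6.

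Among E2F factors the genes E2f1, E2f3, E2f4 and E2f8 had both PELP1 FBKO libraries below both FLOXED libraries, and none of the 7 tested had both above. Over all genes 23.0% lay below and 25.4% above. E2f1, an activator of S phase genes, had 6.26 and 4.80 CPM in PELP1 FBKO, against 8.21 and 6.78 CPM in FLOXED (log2 fold change -0.44, SE 0.234, adjusted p = 0.415). E2f3 had 41.0 and 36.1 CPM in PELP1 FBKO, against 44.5 and 48.4 CPM in FLOXED (log2 fold change -0.27, SE 0.140, adjusted p = 0.404). E2f4, a repressor of quiescent cells, had 35.2 and 37.4 CPM in PELP1 FBKO, against 50.0 and 39.6 CPM in FLOXED (log2 fold change -0.30, SE 0.157, adjusted p = 0.399). For E2f4 the gap between PELP1 FBKO 2 and FLOXED 2 was narrow and FLOXED 1 stood highest. E2f8, an atypical repressor, had 9 and 8 reads in PELP1 FBKO, against 12 and 11 reads in FLOXED. E2f2, E2f5 and E2f6 overlapped between genotypes, with log2 fold changes of 0.05, -0.03 and 0.04. The scarce activator E2f2 stood between 1.88 and 3.18 CPM and the repressor E2f6 between 29.1 and 31.6 CPM. E2f7 had 1 and 4 reads in PELP1 FBKO and 2 and 6 reads in FLOXED.

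Cdc25 phosphatases remove the brake on cyclin-dependent kinases. Cdc25a, which acts in S phase, had 9.79 and 9.75 CPM in PELP1 FBKO, against 13.2 and 11.7 CPM in FLOXED (log2 fold change -0.35, SE 0.178, adjusted p = 0.393). Cdc25b overlapped between genotypes, with 16.7 and 14.1 CPM in PELP1 FBKO and 16.3 and 13.3 CPM in FLOXED (log2 fold change 0.06, adjusted p = 0.907). Cdc25c had 6 and 7 reads in PELP1 FBKO and 10 and 7 reads in FLOXED. Cdc20, the activator of the anaphase-promoting complex, had 20 and 13 reads in PELP1 FBKO and 18 and 23 reads in FLOXED (log2 fold change -0.43, SE 0.413, adjusted p = 0.660).

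Of the kinase inhibitors Cdkn1b, Cdkn1c and Cdkn2c had both PELP1 FBKO libraries above both FLOXED libraries. Cdkn1b encodes p27, which holds cells in quiescence, and had 53.7 and 45.1 CPM in PELP1 FBKO, against 38.6 and 41.2 CPM in FLOXED (log2 fold change 0.31, SE 0.145, adjusted p = 0.354). Cdkn1c encodes p57, an imprinted inhibitor linked to stem cell quiescence, and had 4.17 and 5.53 CPM in PELP1 FBKO, against 2.74 and 3.83 CPM in FLOXED (log2 fold change 0.55, SE 0.285, adjusted p = 0.395). Cdkn2c encodes p18, an inhibitor of Cdk4 and Cdk6, and had 61 and 80 reads in PELP1 FBKO, against 38 and 45 reads in FLOXED. Scaled, Cdkn2c stood at 2.77 and 3.92 CPM in PELP1 FBKO, against 2.17 and 2.08 CPM in FLOXED (log2 fold change 0.65, SE 0.303, adjusted p = 0.352). For Cdkn1b the excess was larger in PELP1 FBKO 1 and for Cdkn1c and Cdkn2c in PELP1 FBKO 2. Cdkn2d and Cdkn2b overlapped between genotypes, each with a log2 fold change of -0.02. Cdkn2a, the locus of the senescence inhibitor p16, had 4 and 6 reads in PELP1 FBKO and 3 and 5 reads in FLOXED, and Cdkn3, a phosphatase of kinases, had 5 and 5 reads in PELP1 FBKO and 5 and 10 reads in FLOXED. In 3 of 5 tested inhibitors both PELP1 FBKO libraries lay above, against 25.4% of all genes, and in 0 below, against 23.0%. Scaled, the untested Cdkn3 lay below FLOXED in both PELP1 FBKO libraries. The median log2 fold change of the tested inhibitors was 0.31.

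Cdk genes outside the cell cycle core spanned a wide range of levels and lay on both sides of FLOXED. Per kilobase the mean levels over all libraries were 75.5 CPM for Cdk16, 71.7 CPM for Cdk17, 67.8 CPM for Cdk5 and 64.7 CPM for Cdk14, all above Cdk4 (27.9 CPM). The other 10 lay below Cdk4, between 0.229 CPM for Cdk15 and 27.6 CPM for Cdk7. Cdk14, Cdk16 and Cdk17 are of the PCTAIRE and PFTAIRE kinases, which brain expresses strongly. Cdk14 had 380 and 332 CPM in PELP1 FBKO, against 294 and 325 CPM in FLOXED. Cdk17 had 255 and 233 CPM in PELP1 FBKO, against 256 and 293 CPM in FLOXED. Cdk14 thus lay above and Cdk17 below FLOXED, each by a narrow gap at one pair of libraries, with adjusted p-values of 0.547 and 0.597. Cdk16 had 242 and 230 CPM in PELP1 FBKO and 269 and 247 CPM in FLOXED. Cdk5, which works with p35 in neurons, had 141 and 127 CPM in PELP1 FBKO and 161 and 129 CPM in FLOXED, and its libraries overlapped (log2 fold change -0.11, SE 0.152, adjusted p = 0.764).

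Kinases of transcription and the remaining Cdk genes split as well. Cdk19, a kinase of the Mediator complex and paralog of Cdk8, had 76.4 and 70.5 CPM in PELP1 FBKO, against 45.2 and 63.1 CPM in FLOXED (log2 fold change 0.44, SE 0.174, adjusted p = 0.279). FLOXED 1 was the low library, and without it the difference was 0.22. Without FLOXED 2 it was 0.69. Cdk8 had 14.5 and 15.4 CPM in PELP1 FBKO, against 16.6 and 15.6 CPM in FLOXED. Cdk9, the kinase of the elongation factor P-TEFb, had 61.0 and 61.9 CPM in PELP1 FBKO, against 74.4 and 74.5 CPM in FLOXED (log2 fold change -0.28, SE 0.122, adjusted p = 0.324). The libraries of each genotype lay close together, and the difference stayed between -0.29 and -0.28 when each library was left out. Cdk13, a kinase of the RNA polymerase II tail, had 71.7 and 66.0 CPM in PELP1 FBKO, against 54.2 and 61.3 CPM in FLOXED (log2 fold change 0.25, SE 0.133, adjusted p = 0.406). Its paralog Cdk12 overlapped between genotypes, with 31.4 and 30.0 CPM in PELP1 FBKO and 25.1 and 32.8 CPM in FLOXED. Cdk20 had 13.3 and 12.4 CPM in PELP1 FBKO, against 10.7 and 10.8 CPM in FLOXED (log2 fold change 0.26, SE 0.172, adjusted p = 0.506). Cdk7, the kinase of TFIIH that also activates other Cdk proteins, overlapped between genotypes, with 55.0 and 56.4 CPM in PELP1 FBKO and 50.6 and 57.6 CPM in FLOXED. Cdk10 lay lower, with 34.0 and 31.9 CPM in PELP1 FBKO and 42.8 and 34.6 CPM in FLOXED, and Cdk18 stood between 31.5 and 36.4 CPM. Cdk15 had 10 and 10 reads in PELP1 FBKO and 6 and 14 reads in FLOXED. Of all 14 Cdk genes outside the cell cycle core 5 lay above and 5 below FLOXED in both PELP1 FBKO libraries, against 25.4% and 23.0% of all genes. Their median log2 fold change was -0.03.

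The low levels of the replication genes were found in PELP1 FBKO 1 and not, by their median, in PELP1 FBKO 2. PELP1 FBKO 1 was the lowest of the libraries in 13 of the 16 licensing and fork genes, and PELP1 FBKO 2 in 0. Over all 58 tested members PELP1 FBKO 1 was lowest in 44.8%, against 26.1% of all tested genes, and PELP1 FBKO 2 in 20.7%, against 20.6%. FLOXED 1 stood apart over all genes, being lowest in 33.4% and highest in 32.6%, and it was lowest in 22.4% and highest in 39.7% of members. FLOXED 2 was lowest in 12.1% of members, against 19.9% of all genes, and highest in 27.6%, against 19.7%. The median log2 deviation of the licensing and fork genes from their mean over the libraries was -0.35 in PELP1 FBKO 1 and 0.09 in PELP1 FBKO 2, against 0.20 in FLOXED 1 and 0.07 in FLOXED 2. Their median log2 fold change was -0.03 without PELP1 FBKO 1 and -0.52 without PELP1 FBKO 2. The median of these genes therefore lay near 0 once PELP1 FBKO 1 was left out. For the inhibitors the median was 0.16 without PELP1 FBKO 1 and 0.27 without PELP1 FBKO 2.

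**Figure D3:**
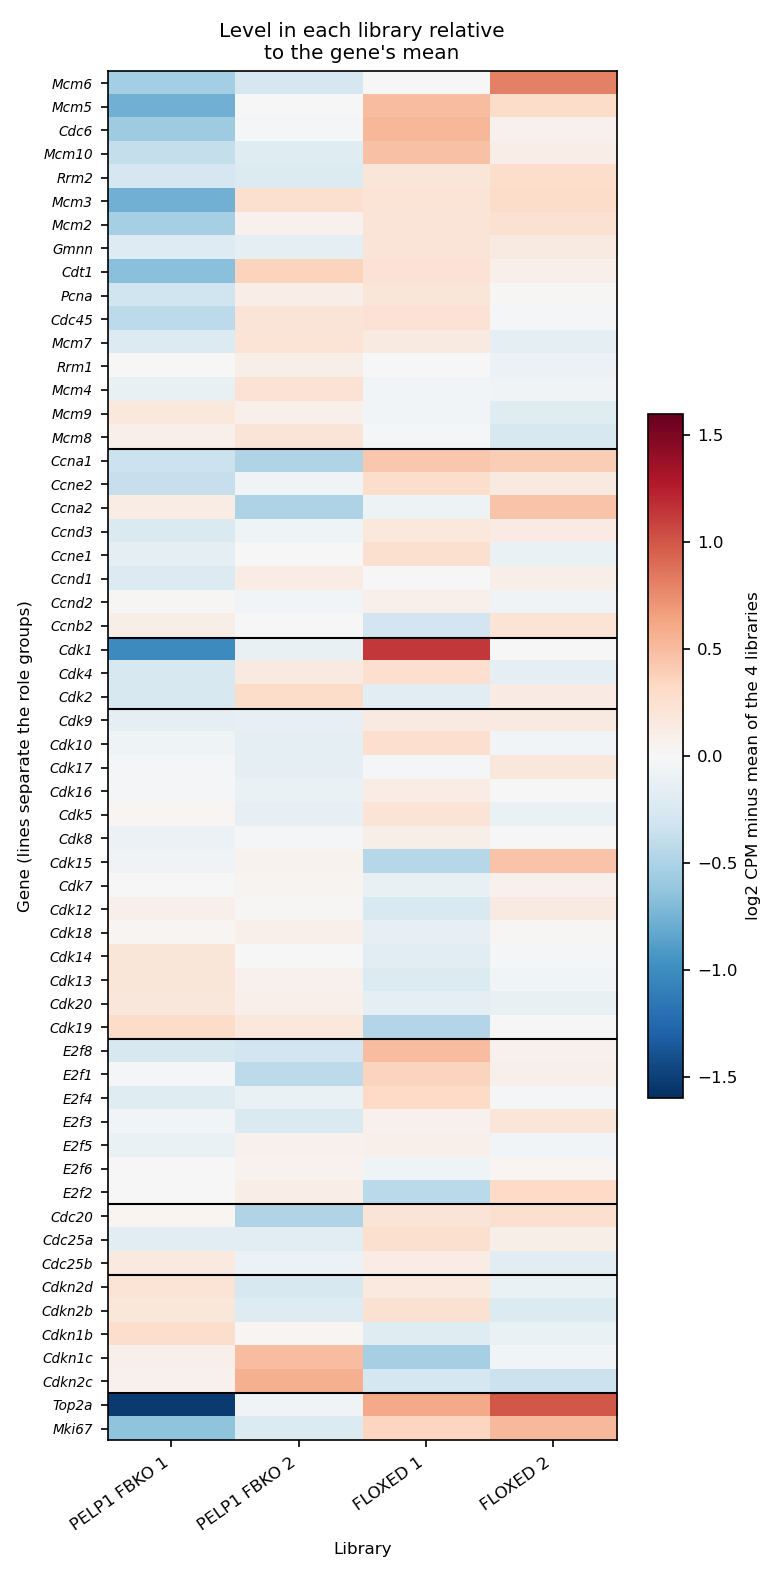
Level of each tested gene (rows, in role groups separated by lines) in each library (columns), as log2 CPM minus the gene's mean over the 4 libraries (colour). The upper rows, the licensing and fork genes, are bluest in PELP1 FBKO 1, where 13 of 16 were lowest, and Top2a has its deepest blue there too.

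Other genes of the pathway, outside the symbols of the rule, were taken from 6 lists, and by edgeR 0 of them passed the threshold in either direction. Over all tested genes both PELP1 FBKO libraries lay below both FLOXED libraries in 23.0% and above them in 25.4%. Of 12 origin recognition and GINS genes, which mark origins and complete the helicase, both PELP1 FBKO libraries lay below FLOXED in 6 and above in 2, with a median log2 fold change of -0.22. Orc1, the origin subunit that varies with the cycle, had 0.272 and 0.539 CPM in PELP1 FBKO, against 0.969 and 0.830 CPM in FLOXED (adjusted p = 0.333), and Orc4 had a log2 fold change of -0.26 (adjusted p = 0.377). Of 23 DNA polymerase and fork genes 8 lay below and 1 above, with a median of -0.16. Pole2, a subunit of the leading-strand polymerase, had 0.272 and 0.637 CPM in PELP1 FBKO, against 1.37 and 1.20 CPM in FLOXED (log2 fold change -1.50, SE 0.497, adjusted p = 0.211), and Rfc3, of the clamp loader, had a log2 fold change of -0.58 (SE 0.217, adjusted p = 0.256). At an unadjusted p under 0.05 these were 2 of 23 lower and 0 higher, and 0 of 12 in the origin list, where all genes had 5.55% lower and 10.1% higher.

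Of 22 tested genes of mitosis and the spindle 9 lay below and 3 above, against 23.0% and 25.4% of all genes, with a median of -0.20. At an unadjusted p under 0.05 they divided into 2 lower and 1 higher, against 5.55% and 10.1% of all genes. Ccnf, a cyclin that marks proteins for degradation, had a log2 fold change of -0.53 (SE 0.217, adjusted p = 0.297), and the kinetochore gene Nuf2 had 0.73 (SE 0.303, adjusted p = 0.297). Of 11 genes of the RB family and the DREAM complex, which represses cell cycle genes in quiescence, 4 lay below and 2 above. The median log2 fold change was -0.16. Those below were Tfdp1 (-0.32), the DREAM subunits Lin37 (-0.31) and Lin54 (-0.16), and Foxm1 (-0.40). Those above were Lin52, a DREAM subunit, with 23.4 and 23.1 CPM in PELP1 FBKO, against 15.2 and 15.9 CPM in FLOXED (log2 fold change 0.58, SE 0.153, adjusted p = 0.139), and Rbl2, the pocket protein p130 of that complex, with 62.2 and 62.9 CPM in PELP1 FBKO, against 44.0 and 51.5 CPM in FLOXED (log2 fold change 0.39, SE 0.136, adjusted p = 0.235). The 7 genes of nucleotide supply had 2 below and 1 above and a median of 0.06, with Dut, a dUTPase, at -0.34 (adjusted p = 0.357) and Tk1, thymidine kinase, at -0.82 (adjusted p = 0.495). The 13 cyclin partners and activators of the other Cdk genes had 5 below and 1 above and a median of -0.07, with Med12 of the Mediator kinase module at 0.36 (adjusted p = 0.379) and Ccnl2 at -0.19 (adjusted p = 0.484).

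**Figure D4:**
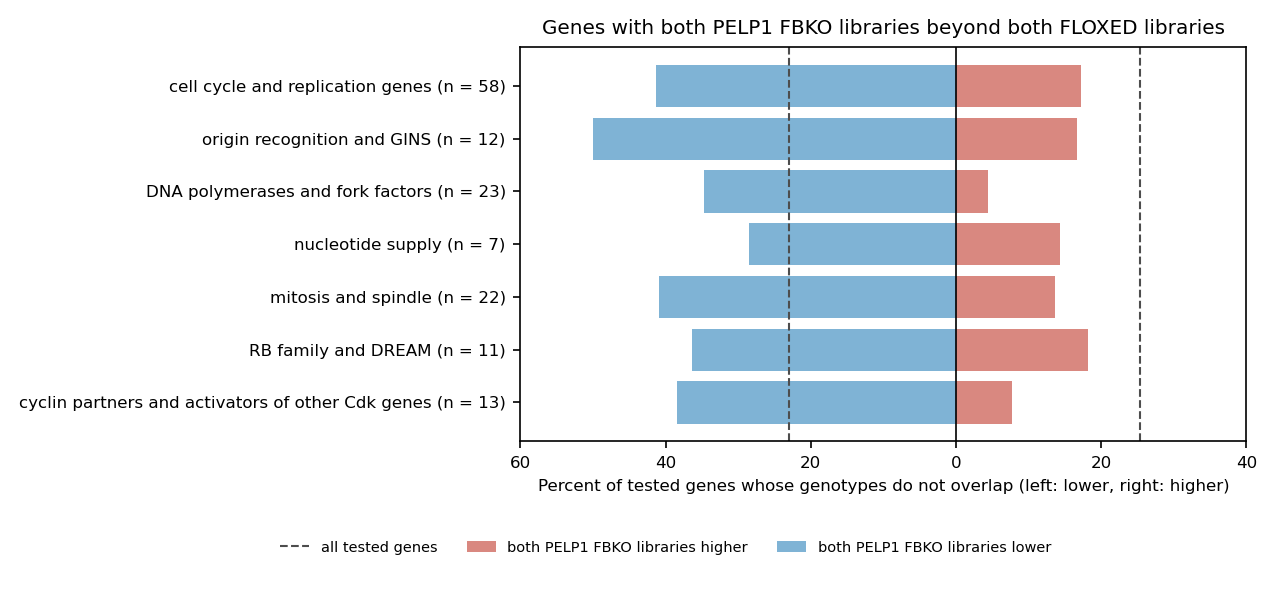
Percent of tested genes in each list (rows) for which both PELP1 FBKO libraries lay below (left, blue) or above (right, red) both FLOXED libraries, with dashed lines for all tested genes (23.0% and 25.4%). The lower share exceeds the line in each list, and the higher share is below it.

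Most markers of cells that can divide had positive log2 fold changes, but this was not particular to them. Positive too were 7 of 7 astrocyte, 8 of 8 oligodendrocyte, 4 of 5 interneuron and 4 of 5 meningeal fibroblast markers. Of the pyramidal and granule neuron markers 3 of 6 were positive, of the choroid plexus markers 2 of 4, and of the tested leukocyte markers 1 of 2. The 6 oligodendrocyte precursor markers summed to 370.6 and 369.4 CPM in PELP1 FBKO, against 275.1 and 310.5 CPM in FLOXED, and 6 of 6 had a positive log2 fold change. The 9 microglia markers summed to 695 and 953 CPM in PELP1 FBKO, against 639 and 583 CPM in FLOXED, with 9 of 9 positive. The 6 listed progenitor and neuroblast markers summed to 131 and 162 CPM in PELP1 FBKO, against 105.5 and 129 CPM in FLOXED, with 5 of 6 positive. The exception was Nes, the progenitor filament gene, which was lowest in PELP1 FBKO 1 and overlapped between genotypes, with 12.5 and 33.4 CPM in PELP1 FBKO and 24.9 and 37.7 CPM in FLOXED (log2 fold change -0.46, SE 0.403, adjusted p = 0.623). The 7 endothelial and mural markers summed to 190.5 and 182 CPM in PELP1 FBKO, against 109 and 164 CPM in FLOXED, with 7 of 7 positive. The 7 astrocyte markers summed to 7423 and 9335 CPM in PELP1 FBKO, against 5831 and 6648 CPM in FLOXED. Both PELP1 FBKO libraries lay above FLOXED in 4 of them (57.1%), against 25.4% of all genes, and 3 overlapped. Gfap, a large part of the sum, overlapped, with 1500 and 3882 CPM in PELP1 FBKO and 2382 and 2258 CPM in FLOXED. The 8 oligodendrocyte markers summed to 5801 and 6222 CPM in PELP1 FBKO, against 2904 and 3702 CPM in FLOXED. Infiltrating leukocyte markers were scarce, summing to 7.35 and 10.6 CPM in PELP1 FBKO and 6.33 and 8.54 CPM in FLOXED, with the T cell gene Cd3e at 1 read in PELP1 FBKO 1 and 0 reads in the other libraries. Interneuron markers summed to 1141 and 1217 CPM in PELP1 FBKO, against 929 and 876 CPM in FLOXED, and meningeal fibroblast markers to 95.2 and 131 CPM in PELP1 FBKO, against 90.5 and 99.7 CPM in FLOXED. Choroid plexus markers summed to 52.7 and 61.6 CPM in PELP1 FBKO, against 351 and 101 CPM in FLOXED. That difference was in Ttr, the transthyretin gene, with 21.4 and 33.9 CPM in PELP1 FBKO, against 323.9 and 67.5 CPM in FLOXED, while Kl, Folr1 and Prlr overlapped between genotypes. The part of cell makeup in the levels of the cell cycle genes was not tested.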

How the data were processed

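RNA-seq was run on hippocampus from 2 PELP1 FBKO and 2 FLOXED libraries as 50-base single reads from TruSeq libraries, per the labels' protocols. Each deposited file lists one library's unnormalized counts by gene symbol. CASAVA 1.8.2, TopHat2 2.0.8b and HTSeq appear in the submitters' processing notes with build mm9, while the series text names a human build; the files hold mouse symbols. The annotation and the settings of HTSeq are not given in the sources used here. Its 5 summary rows were left out of totals and fits: of uniquely placed reads 14.7% to 15.7% lay in no gene, and reads that did not align uniquely (38.5% to 47.7% of all alignments and reads in the file) were not counted, so genes with near-identical copies are uncertain.

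Genotype was tested with edgeR 4.0.16 in R 4.3.3 (TMM, filterByExpr, quasi-likelihood F test, genotype only, Benjamini-Hochberg over all 14978 tested genes, threshold 0.05). SE was derived from the F statistic. The common dispersion was 0.0201. A check of the fit on simulated counts set a requirement only on the sign of large differences. Smaller differences were simulated too, and how many of them were found is not reported here. How well the fit recovers the size of a difference was not tested. Replicates of a genotype differed beyond sampling noise (chi-square per degree of freedom 23.3 for FLOXED and 17.4 for PELP1 FBKO, over genes that had 10 or more reads in both libraries together) and count as separate samples. Pairs of libraries across the genotypes gave 22.38 to 46.85, so the lowest of them lay below the FLOXED pair. Nothing says that the replicates were separate animals, so p-values measure only how these samples spread, and that spread may be technical. DESeq2 1.42.0, limma-voom (limma 3.58.1), other size factors and filters, a replicate block and the omission of single libraries were alternatives. Lengths are those of the longest GENCODE vM21 transcript, and promoters are RefSeq's in GRCm38.p6. Since mm9 is older, coordinates are given for promoters only.

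The members and lists were chosen with earlier results of these data known. Pelp1 was named as the check of the labels. All members may be named; by rule the members of each role with the smallest p (up to 4) or highest level (up to 2) and the 2 genes of each pathway list with the smallest p have values in each library or a log2 fold change. Tfap2c and Ccnq of the lists are not among the listed symbols.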

Additional observations from a re-analysis of the deposited data

How the results depend on the processing

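The number of genes called over all genes was 0, but 449 with DESeq2, 17 with median-ratio size factors, 23 with library totals only, 359 with no count filter, 43 where every library had 50 or more reads of a gene, and 0 to 598 when each library was left out. Members called stayed at 0 in each of these, except 1 without FLOXED 2 (Cdk19) and 4 without PELP1 FBKO 2 (Mcm3, Mcm5, Mcm6 and Top2a), a range of 0 to 4. With at least 50 reads in every library, fewer genes were tested and 39 members remained. Of these 3 had an unadjusted p under 0.05 (1 higher and 2 lower). The genotypes did not overlap in 22 (8 higher and 14 lower). The shares of all genes under that filter were not worked out, so these counts have no background. The median log2 fold change of members ran from -0.236 to -0.0909 with single libraries left out. The medians of role groups moved as follows. Cyclins had -0.309 with DESeq2, -0.298 with no filter and -0.112 at 50 reads. The kinases Cdk1, Cdk2, Cdk4 and Cdk6 had -0.396 with DESeq2, -0.372 with no filter and -0.663 to -0.148 with single libraries left out. Inhibitors had 0.211 with no filter, 0.158 at 50 reads and 0.160 to 0.347 with single libraries left out. The other Cdk genes had 0.0538 at 50 reads and -0.0584 to 0.150 with single libraries left out, and Cdc20 with the Cdc25 genes had -0.130 at 50 reads. With single libraries left out, licensing and fork genes ran from -0.520 to -0.0285, E2F factors from -0.279 to -0.178, and Top2a with Mki67 from -1.70 to -0.782. At 50 reads Top2a with Mki67 gave no value. Filters changed which genes were tested; for the other moves the cause was not tested.

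Of the 42 genes named by rule 38 kept their sign in each alternative. The other 4 turned only when single libraries were left out: Cdc25b ran from -0.0891 to 0.212, Cdk2 from -0.252 to 0.278, Cdk4 from -0.334 to 0.0961 and Cdkn2d from -0.300 to 0.193. With the replicate number as a block, 566 genes and 2 members were called, Mcm6 (-0.82, adjusted p = 0.0352) and Top2a (-1.52, adjusted p = 0.0305). The deviations of same-numbered libraries from their genotype means were only weakly, and negatively, correlated (-0.118 over 14978 genes), so the numbers are not shown to pair them. With the numbers crossed, an alternative chosen after seeing the data, 314 genes and 0 members were called. A lone library of a genotype was assumed to vary like the other genotype. Depth limits the scarcest members: 22 tested members averaged under 5 CPM.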

Other observations

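Pttg1, which encodes securin, the inhibitor of sister chromatid separation, was chosen after its values were seen. It had 10.4 and 17.4 CPM in PELP1 FBKO, against 1.20 CPM in FLOXED 1 and 10.9 CPM in FLOXED 2 (log2 fold change 1.17, SE 0.706, adjusted p = 0.467). FLOXED 1 stood far below the other libraries, and the genotypes overlapped. Over 10 alternatives the adjusted p ran from 1.81e-05 to 0.823, and it passed the threshold without PELP1 FBKO 1, without FLOXED 2 and with the replicate number as a block.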
